A study of Mus musculus with 3 samples.

Results

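The loci described are those of 5 mouse microRNA genes known for roles in myeloid cells, Mir155, Mir142, Mir146, Mir21a and Mir223. They were taken by name, with earlier results of these data known, out of 2196 microRNA genes annotated by GENCODE M21 on chromosomes 1 to 19 and X. The study measured DNase I hypersensitivity, which reads the places where chromatin is open enough for the nuclease to cut, in primary monocytes. All 3 libraries, numbered as biological replicates 1, 2 and 4, came from virgin female B6CASTF1/J mice, adults of 2 months, and form 1 group with no treatment, mutant or control beside it. B6CASTF1/J is the first-generation cross of the C57BL/6J and CAST/EiJ strains, so each cell carries 1 allele of each parent. The 3 libraries share 1 donor identifier and nothing states that they came from separate animals, so every SD below measures the spread between libraries, which may be technical.

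A microRNA gene is transcribed into a long primary RNA, from which the nuclear enzyme Drosha cuts a hairpin and the cytoplasmic enzyme Dicer a short mature RNA. The mature RNA guides an Argonaute protein to messenger RNAs that pair with its seed, the bases near its 5′ end, and their translation or stability falls. In blood, miR-142 and miR-223 are known as abundant RNAs of haematopoietic and myeloid cells, miR-155 and miR-146a as RNAs induced by inflammatory signals that act through NF-kappaB, and miR-21 as a widely made RNA that myeloid activation raises.

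All 5 members were found among the RefSeq mature sequences of GRCm38.p6, with 10 mature RNAs and 10 distinct seeds, so no seed was shared among the members. The mature RNAs below are shown because the loci differ in what they make and not only in how open they are. The arm usually taken as the main product is given for each, and both arms for Mir142. Capitals mark the seed, bases 2 to 8. Among the RefSeq mouse set, miR-146a-5p shares its seed with miR-146b-5p, made from Mir146b on chromosome 19, and miR-21a-5p shares its seed with miR-21c.
miR-155-5p: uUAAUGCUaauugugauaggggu
miR-142a-3p: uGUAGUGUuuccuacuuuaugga
miR-142a-5p: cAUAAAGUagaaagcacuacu
miR-146a-5p: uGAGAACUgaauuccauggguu
miR-146b-5p: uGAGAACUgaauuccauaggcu
miR-21a-5p: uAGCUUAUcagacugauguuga
miR-223-3p: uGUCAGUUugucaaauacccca

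The DNA that carries the accessibility result is shown next, as mm10 reference sequence of the plus strand read from RefSeq's GRCm38.p6, in which all 5 hairpins matched. Each run is an accessible region found in all 3 libraries, trimmed to its central 300 bases where it was longer, and capitals mark bases inside a deposited footprint of every library. A footprint is a short stretch within open chromatin that was cut less than its surroundings. The first 4 regions lie at the start of a long noncoding transcript that holds or neighbours a member, or just before it for Mir155hg. The next is the open region nearest to a hairpin, and the last 3 are distal regions of Mir21a and Mir146 to which the text returns.
Mir142hg start, chr11:87755421-87755660: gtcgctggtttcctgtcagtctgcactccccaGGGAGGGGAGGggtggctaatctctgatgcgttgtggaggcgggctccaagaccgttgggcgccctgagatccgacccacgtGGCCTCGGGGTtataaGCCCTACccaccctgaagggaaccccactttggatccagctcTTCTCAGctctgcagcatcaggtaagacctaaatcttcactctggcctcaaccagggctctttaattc
Gm12148 start near Mir146, chr11:43385250-43385549: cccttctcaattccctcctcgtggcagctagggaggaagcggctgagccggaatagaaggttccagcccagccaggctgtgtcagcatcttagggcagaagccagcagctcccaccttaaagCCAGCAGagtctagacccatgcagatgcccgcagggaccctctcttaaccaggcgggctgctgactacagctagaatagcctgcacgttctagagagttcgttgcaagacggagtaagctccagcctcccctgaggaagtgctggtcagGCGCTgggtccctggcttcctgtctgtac
Mir155hg start, chr16:84702841-84703100: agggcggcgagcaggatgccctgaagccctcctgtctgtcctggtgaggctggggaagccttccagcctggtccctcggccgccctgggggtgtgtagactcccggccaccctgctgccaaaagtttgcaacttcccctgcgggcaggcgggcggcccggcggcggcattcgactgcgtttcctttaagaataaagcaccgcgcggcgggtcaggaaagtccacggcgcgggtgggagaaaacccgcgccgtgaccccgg
F630028O10Rik start near Mir223, chrX:96239701-96240000: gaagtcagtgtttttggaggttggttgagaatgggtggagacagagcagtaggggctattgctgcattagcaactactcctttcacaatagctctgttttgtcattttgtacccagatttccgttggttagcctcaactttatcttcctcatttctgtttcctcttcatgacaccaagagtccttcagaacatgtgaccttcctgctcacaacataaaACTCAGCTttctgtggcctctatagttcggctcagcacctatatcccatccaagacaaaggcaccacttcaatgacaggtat
Mir142 hairpin flank, chr11:87756470-87756769: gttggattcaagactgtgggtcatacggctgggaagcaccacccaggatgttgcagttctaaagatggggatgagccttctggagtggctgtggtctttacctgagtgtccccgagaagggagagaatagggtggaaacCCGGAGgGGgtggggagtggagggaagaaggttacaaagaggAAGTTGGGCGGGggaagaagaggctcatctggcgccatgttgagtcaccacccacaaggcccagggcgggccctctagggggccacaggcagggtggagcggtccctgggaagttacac
Mir21a upstream, chr11:86586781-86587000: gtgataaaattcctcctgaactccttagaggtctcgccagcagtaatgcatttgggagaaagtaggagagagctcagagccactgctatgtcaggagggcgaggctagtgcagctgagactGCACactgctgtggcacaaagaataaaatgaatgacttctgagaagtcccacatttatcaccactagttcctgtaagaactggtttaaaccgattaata
Mir21a far upstream, chr11:86624361-86624580: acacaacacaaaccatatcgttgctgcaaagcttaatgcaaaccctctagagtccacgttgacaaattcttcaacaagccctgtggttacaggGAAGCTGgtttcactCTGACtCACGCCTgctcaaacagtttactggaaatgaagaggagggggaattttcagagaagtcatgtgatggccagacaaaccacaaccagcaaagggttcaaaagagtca
Mir146 downstream, chr11:43348701-43348900: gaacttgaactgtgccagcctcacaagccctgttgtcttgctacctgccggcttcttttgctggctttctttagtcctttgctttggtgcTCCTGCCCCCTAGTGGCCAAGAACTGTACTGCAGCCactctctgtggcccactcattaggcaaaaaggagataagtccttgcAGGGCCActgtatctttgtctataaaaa

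The libraries held 54046, 42657 and 48980 peaks in replicates 1, 2 and 4, taking the longer of the 2 lists deposited for each. Peaks were called in each library separately, sequencing depth is not given in the sources used here, and the height of a peak is the authors' own value on a scale they do not state. At regions shared by all 3 libraries the median height ratio to replicate 1 was 0.833 in replicate 2 and 1.18 in replicate 4, so only heights within a library, or percentiles of its own list, compare directly. The identity of the sample was read from promoters, a gene counting as open when a peak fell no more than 1 kb from the transcription start site (TSS) of one of its coding transcripts. Of all protein-coding genes 50.9% had such a promoter peak in all 3 libraries. Among lists of marker genes, 7 of 10 monocyte markers had one, with 2 more in only some libraries. One was also found in all 3 libraries for 1 of 6 neutrophil and 1 of 5 megakaryocyte or platelet markers, and for none of 6 T cell, 6 B cell, 5 natural killer cell, 5 erythroid and 4 mast cell or basophil markers. In such bulk data, more cells with an open site and a more open site per cell cannot be told apart.

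Across the 5 loci, 45, 35 and 40 peaks lay within 50 kb of a gene start in replicates 1, 2 and 4 (40.0 ± 5.0, SD, n = 3). Merging peaks of the 3 libraries that overlap by at least 1 bp gave 47 regions. Of these, 33 had a peak in every library, or 70.2%, against 54.3% of the 63420 regions of the whole genome. Of the other 14 regions 4 were found in 2 libraries and 10 in 1, of which 7 were seen only in replicate 1 and 3 only in replicate 4. These less recurrent regions were low, between 0.322 and 1.01 in replicate 1 and between 0.433 and 0.99 in replicate 4. Among the 33 recurrent regions, 22 were also in the shorter, stricter list of every library, which is 66.7%, against 71.6% of all recurrent regions.

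Most recurrent regions of the members lay away from promoters of protein-coding genes. Only 4 of the 33, or 12.1%, were within 1 kb of a coding TSS, against 39.8% of all recurrent regions, which leaves 29 distal ones. Of these 29, 5 lay within 1 kb of the annotated start of a long intergenic or antisense RNA. The median height of the members' recurrent regions was 1.77, 1.40 and 2.15 in replicates 1, 2 and 4, against 1.45, 1.18 and 1.66 over all recurrent regions. Restricted to distal regions, the medians were 1.70, 1.29 and 1.87 for the members and 1.16, 0.940 and 1.30 for the genome. The order of the libraries was much the same at the members as elsewhere. Replicate 4 was the tallest at 27 of 33 member regions (81.8%) and at 73.1% of all regions, and replicate 2 the lowest at 29 (87.9%) and at 80.2%.

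**Figure D1:**
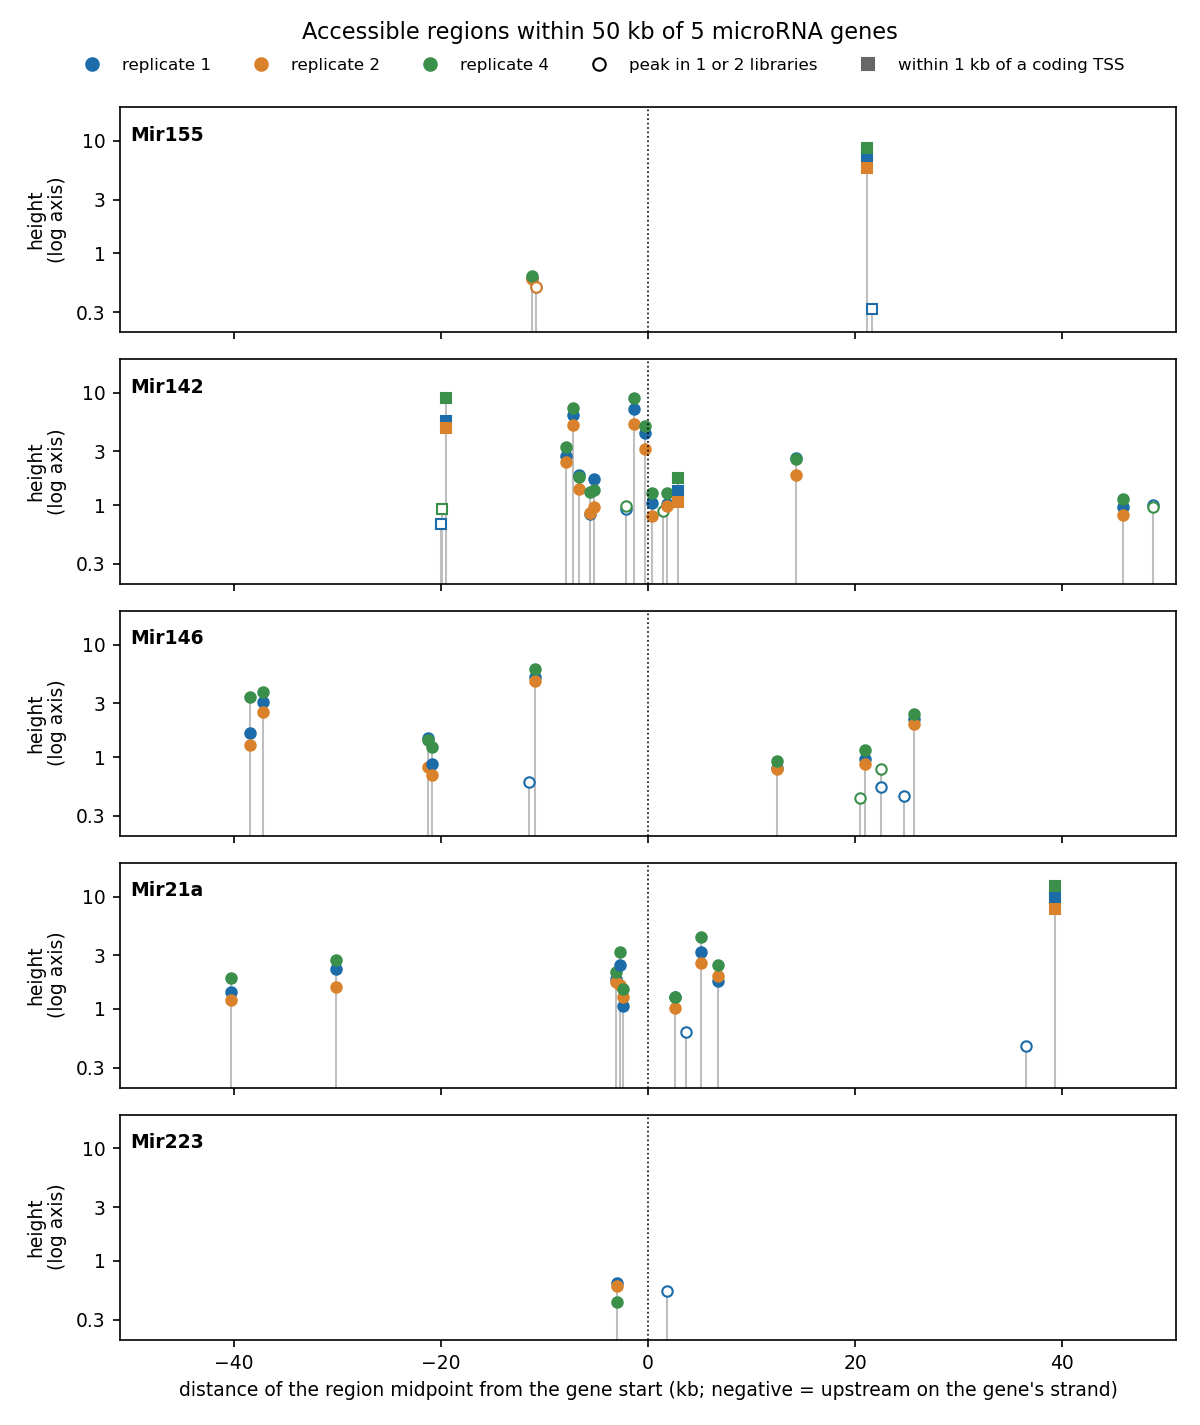
Accessible regions within 50 kb of the 5 gene starts: the x axis is the distance of the region midpoint from the gene start in kb, negative upstream, and the y axis is peak height on a log axis. Each point is 1 library, filled where all 3 libraries had a peak, and squares lie within 1 kb of a coding TSS. Mir142 holds 13 filled regions and Mir223 a single one near the floor.

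The loci differed widely in how many regions they held. Mir142 had 16, 13 and 17 peaks within 50 kb in replicates 1, 2 and 4 (15.3 ± 2.08, SD, n = 3), Mir146 had 12, 9 and 11 (10.7 ± 1.53) and Mir21a had 11, 9 and 9 (9.67 ± 1.15). Mir155 had 4, 3 and 2 (3.0 ± 1.0) and Mir223 had 2, 1 and 1 (1.33 ± 0.577). Mir142 stood above all other members in every library, and Mir146 and Mir21a above Mir155 and Mir223. Mir146 and Mir21a, next to each other in this order, did not differ beyond their spread. The ranges of Mir155 and Mir223 touched at 2 peaks, although Mir155 had more than Mir223 in every library. Over all 2196 microRNA genes the median was 2.17 peaks and 1 recurrent region, and 890 genes, or 40.5%, had no recurrent region within 50 kb. At least as many recurrent regions as the 13 of Mir142 were found at 68 microRNA genes, or 3.10%. The corresponding number was 220 for the 9 regions of Mir21a, 288 or 13.1% for the 8 of Mir146, 1079 or 49.1% for the 2 of Mir155 and 1306 or 59.5% for the 1 of Mir223. In recurrent regions, though not in mean peaks, the lead of Mir142 rests on its lower peaks. With the shorter, stricter lists it had 7 recurrent regions, against 8 at Mir21a and 6 at Mir146, and with the taller 50% of peaks Mir142 and Mir21a had 9 each. MicroRNA genes in a cluster share their regions, so these shares describe gene records and not separate loci.

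**Figure D2:**
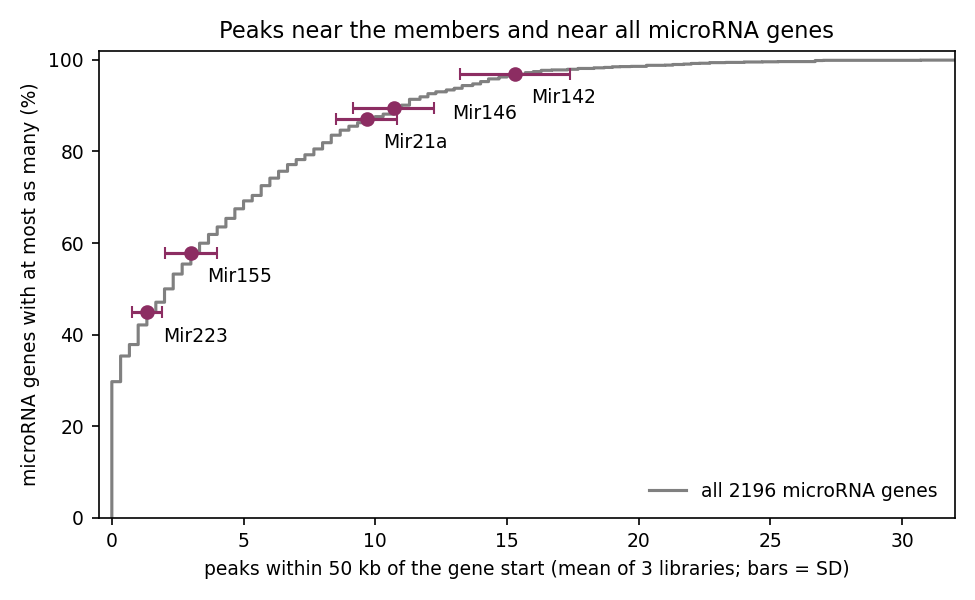
Peaks within 50 kb of the gene start, as the mean of 3 libraries on the x axis, against the percentage of microRNA genes with at most as many on the y axis. The grey line is all 2196 microRNA genes and the points are the members with SD bars (n = 3), of which Mir142, at 15.3 peaks, lies near the top and Mir223, at 1.33, below the middle.

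Open chromatin close to the hairpin was found at a few members only. A peak of every library within 1 kb of the gene start was found at 1 of the 5, Mir142, against 214 of 2196 microRNA genes or 9.74%. Within 5 kb the count was 3 of 5, with Mir21a and Mir223 added, against 24.0%. Of the 214 genes 133 also lay within 1 kb of a coding TSS, while the nearest coding TSS to a member start was 3677 bp away, at Mir142. No member's hairpin lay under a peak, and no deposited footprint covered a hairpin in any library. Mir142 came closest. All 64 bases of its hairpin were listed with a per-base false discovery rate under 0.05 in each library, the lowest value in the hairpin being 1.25e-05, 3.82e-05 and 4.65e-06 in replicates 1, 2 and 4. The other 4 hairpins had no listed base, and the nearest one was 1676, 2189 and 2220 bp away for Mir21a, 1654, 2780 and 2783 bp for Mir223, and over 10 kb away in every library for Mir155 and Mir146. The start of a hairpin record is not the start of its primary transcript, so distances below are to the gene record and say nothing of which region acts on which gene.

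At the starts of the long transcripts that hold or neighbour the members, openness fell into 2 levels. The start of Mir142hg, the long noncoding RNA that holds Mir142, was open at a height of 7.15, 5.27 and 8.92 in replicates 1, 2 and 4 (7.11 ± 1.83, SD, n = 3). The start of Vmp1, the gene of an autophagy membrane protein whose record holds Mir21a, was open at 4.20, 3.26 and 7.29 (4.92 ± 2.11), although it lies 99.7 kb from the Mir21a start. Gm12148, a long noncoding RNA on the opposite strand, has its start 11.0 kb from that of Mir146, and it was open at 5.10, 4.75 and 6.10 (5.32 ± 0.701). In the peak list of each library these 3 starts had percentiles between 85.5 and 96.0. Mir155hg, the host of Mir155 also known as the BIC RNA, had no recurrent region over its annotated start. Its record has transcript support level 5, the weakest grade, against 1 for Mir142hg, Vmp1 and F630028O10Rik and 3 for Gm12148. The exact place of this start is therefore less certain. The region that ends 67 bp before this start was at only 0.602, 0.585 and 0.631 (0.606 ± 0.0233), percentiles 27.4, 21.7 and 21.9. The start of F630028O10Rik, the record that holds Mir223, was at 0.635, 0.594 and 0.433 (0.554 ± 0.107), percentiles 30.3, 22.6 and 5.91. Within each library, the lowest of the first 3 starts was above the higher of the other 2. These heights were 4.20, 3.26 and 7.29 against 0.635, 0.594 and 0.631 in replicates 1, 2 and 4. Of the records named here, Gm12148 was found through its open start, while the other 4 hold a hairpin. A peak of all 3 libraries within 1 kb of the record start was present at each of the 3 noncoding hosts, Mir142hg, Mir155hg and F630028O10Rik, against 16.9% of all long intergenic and antisense RNA genes.

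**Figure D3:**
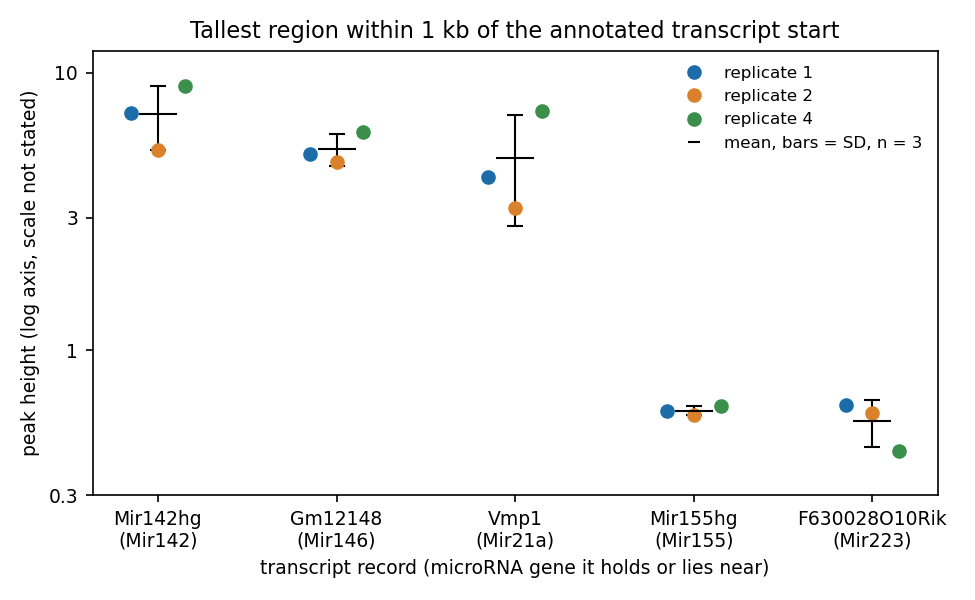
Height of the tallest region within 1 kb of 5 annotated transcript starts, on a log axis, with 1 point per library and the mean and SD of 3 libraries in black. Mir142hg, Gm12148 and Vmp1 lie between 3.26 and 8.92 in every library, and Mir155hg and F630028O10Rik between 0.433 and 0.635.

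Mir142 (ENSMUSG00000105196.1, chr11:87756864-87756927, plus strand) makes miR-142a, and Mir142b overlaps it on the opposite strand, so the data cannot tell the pair apart. Its 13 recurrent regions included 10 within 10 kb of the gene start, and over all microRNA genes 25% of recurrent regions within 50 kb lay that near. Away from coding promoters the tallest in every library was the Mir142hg start given above, 1.32 kb upstream of the gene start. The next was 7.24 kb upstream, outside every gene record, chr11:87749441-87749800, at 6.38, 5.18 and 7.36 in replicates 1, 2 and 4 (6.31 ± 1.09, SD, n = 3). The region next to the hairpin, 0.244 kb upstream inside Mir142hg, was at 4.36, 3.13 and 5.09 (4.19 ± 0.989). The lowest percentile of these 3 in any library was 84.7. Upstream of these, the promoter of Supt4a, which encodes a transcription elongation factor subunit, was open 19.5 kb away at 5.56, 4.82 and 9.05 (6.48 ± 2.26), in replicate 4 slightly above the Mir142hg start. The lower regions upstream had mean heights of 2.80 at 7.91 kb, 1.69 at 6.65 kb, 1.0 at 5.62 kb and 1.34 at 5.21 kb. Downstream, the means were 1.05 at 0.388 kb, 1.09 at 1.84 kb, 1.39 at 2.92 kb in the promoter of Tspoap1, 2.34 at 14.3 kb within Tspoap1 and 0.966 at 45.9 kb within Mpo. Tspoap1 encodes a binding partner of a mitochondrial membrane protein and Mpo the granule enzyme myeloperoxidase of neutrophils and their precursors. The Mpo promoter itself held no peak in any library by the basic annotation. The 5 RefSeq enhancer records in the window, which lie between 87787474 and 87793489 on chromosome 11, overlapped no region of any library.

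Mir146 (ENSMUSG00000065601.1, chr11:43374397-43374461, minus strand) makes miR-146a, a brake on the adaptors of Toll-like receptor signalling. None of its 8 recurrent regions lay within 10 kb of the gene start and none near a coding TSS. The tallest was at the Gm12148 start, 10.9 kb upstream of the gene start on the Mir146 strand. A pair followed farther upstream. At 37.2 kb the height was 3.11, 2.51 and 3.81 in replicates 1, 2 and 4 (3.14 ± 0.652, SD, n = 3). At 38.5 kb it was 1.64, 1.28 and 3.43 (2.12 ± 1.15), so replicate 4 stood apart from the other libraries there. After scaling by the median ratio, replicate 4 was 1.77 times replicate 1 at 38.5 kb, above the 95th percentile of this ratio over all recurrent regions, 1.38. The remaining means were 1.23 at 21.3 kb and 0.93 at 20.8 kb upstream, and 0.836 at 12.4 kb, 0.993 at 20.9 kb and 2.19 at 25.7 kb downstream. The last, chr11:43348701-43348900, was even across libraries at 2.18, 1.98 and 2.43.

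Mir21a (ENSMUSG00000065455.1, chr11:86584067-86584158, minus strand) lies at the 3′ end of the Vmp1 record, and 6 of its 9 recurrent regions lay within 10 kb. The tallest in the window was the shared promoter of Rps6kb1, a kinase of the mTOR pathway, and Tubd1, a delta tubulin, 39.3 kb downstream at 9.66, 7.72 and 12.3 (9.88 ± 2.27, SD, n = 3), and it was the only one near a coding TSS. Nearer to the hairpin, the tallest was 5.12 kb downstream of the gene start, chr11:86578821-86579260, at 3.20, 2.55 and 4.36 (3.37 ± 0.914). By mean height the next was 2.73 kb upstream at 2.47, 1.65 and 3.24 (2.45 ± 0.797), in replicate 2 lower than the regions at 3.12 and 6.72 kb. It lies in the middle of a row of 3, with means of 1.90 at 3.12 kb and 1.29 at 2.38 kb on its sides. A single RefSeq enhancer record, chr11:86586196-86587829, named after an element of the VISTA collection, covered all 3. GENCODE M21 also starts 2 shorter noncoding Vmp1 transcripts inside the middle region, at 86586994 and 86586881, and both end before the hairpin. The other means were 1.5 at 40.3 kb and 2.19 at 30.1 kb upstream, both within Vmp1, and 1.19 at 2.64 kb and 2.07 at 6.72 kb downstream.

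Mir155 (ENSMUSG00000065397.1, chr16:84714140-84714204, plus strand) had only 2 recurrent regions. The taller was the promoter of Mrpl39, a protein of the mitochondrial ribosome, 21.1 kb downstream at 7.39, 5.67 and 8.58 (7.21 ± 1.46, SD, n = 3). The other, 11.2 kb upstream and 67 bp from the annotated Mir155hg start, was the low region given above. A neighbouring region 10.8 kb upstream, inside Mir155hg, was found in replicates 1 and 2 only, at 0.503 and 0.497. The Mir155hg start region was in the shorter list of 1 library. Its sequence was the richest in G and C of the 4 noncoding starts shown, 68.1% with a CpG ratio of 0.798 observed over expected, against 59.0% and 0.345 at Gm12148, 58.3% and 0.393 at Mir142hg and 44.3% and 0.137 at F630028O10Rik. The lowest of the 4 in G and C and the highest were thus the 2 that were least open.

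Mir223 (ENSMUSG00000076066.1, chrX:96242817-96242926, plus strand) had the fewest peaks of the members. Its only recurrent region, 2.97 kb upstream over the F630028O10Rik start, was in the shorter list of no library. Replicate 4, the tallest library at most regions, was the lowest here, and after scaling it was 0.579 times replicate 1, under the 5th percentile over all recurrent regions, 0.653. A second region, 1.82 kb downstream of the gene start, had a peak in replicate 1 only, at 0.536. Mir223 is the member on chromosome X, where the 705 recurrent regions had median heights of 1.25, 1.07 and 1.53 in replicates 1, 2 and 4, against 1.46, 1.19 and 1.66 on autosomes. The 3 heights of the Mir223 region were below both medians in every library. Whether chromosome X bears on them was not tested.

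Over all 33 regions, the scaled ratio to replicate 1 ran between 0.667 and 1.46 for replicate 2 and between 0.579 and 1.77 for replicate 4. Outside the 5th to 95th percentile range over all recurrent regions, 0.733 to 1.36 and 0.653 to 1.38, lay 3 member regions for replicate 2 and 3 for replicate 4.

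Footprints added a second view of the same regions, at single-base scale. The members' recurrent regions held a mean of 2.67, 2.52 and 3.0 footprints in replicates 1, 2 and 4 (2.73 ± 0.248, SD, n = 3), against 3.24, 2.80 and 2.91 over all recurrent regions (2.98 ± 0.231). The ranges of the members and of all regions overlapped. Within libraries, the members were lower than all regions in replicates 1 and 2 and higher in replicate 4. At Mir142, the Mir142hg start held 6, 5 and 4 footprints, of which 36 bp were shared by all 3 libraries, and the region 7.24 kb upstream shared 40 bp. At Mir146, the regions 37.2 kb and 38.5 kb upstream shared 44 and 26 bp, and the one 25.7 kb downstream 43 bp. The tall Gm12148 start shared only 12 bp although it held 8, 5 and 6 footprints. At Mir21a, the 6 recurrent regions within 10 kb shared little, at most 8 bp. The nearest, 2.38 kb upstream, shared 0 bp, and the one 2.64 kb downstream shared 8 bp. The region 2.73 kb upstream shared 4 bp. The one 5.12 kb downstream shared 3 bp, although the 3 libraries held 5, 6 and 7 footprints there. At the low starts, Mir155hg had 2, 1 and 1 footprints with no shared base, and F630028O10Rik had 5, 2 and 1 with 8 bp shared. No footprint in any library was found at 2 of the 33 regions, both at Mir142, and at 1.83% of all recurrent regions.

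**Figure D4:**
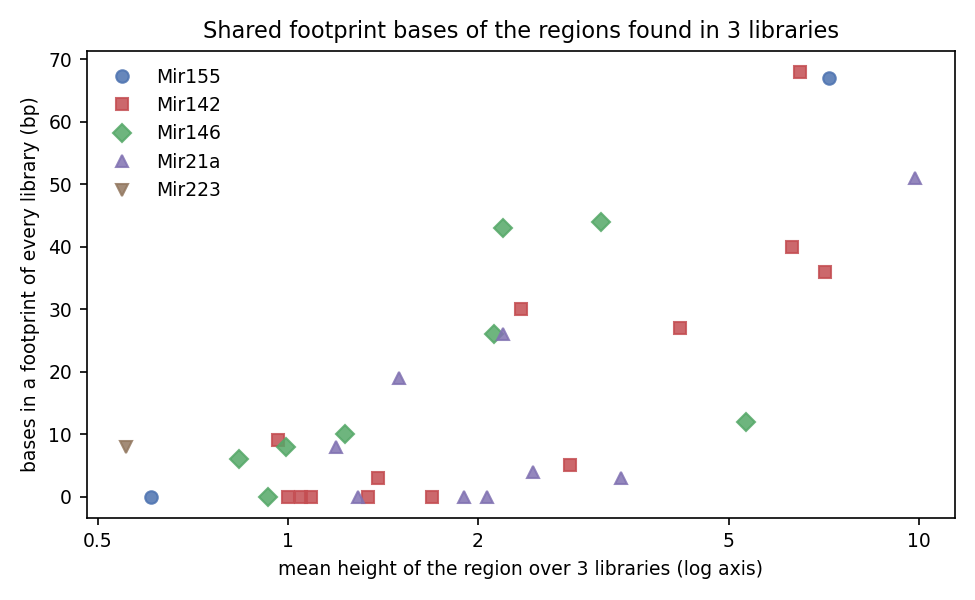
Bases inside a footprint of every library (y axis, bp) against mean height over 3 libraries (x axis, log axis) for the 33 recurrent regions, with 1 symbol per member. The promoter regions of Supt4a and Mrpl39 share 68 and 67 bp, while the Gm12148 start, at a height of 5.32, shares 12 bp.

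Motifs of 10 transcription factors or families were looked for on both strands of the 300 bases centred on each region midpoint. The search describes letters and not binding. These windows run past the edges of regions shorter than 300 bases, so some matches counted below lie outside the region itself. PU.1, the ETS factor of the myeloid lineage, was searched as GAGGAAGT and found in 5 of 33 member windows (15.2%), against 7.88% over all recurrent regions. In the central 150 bases it was in 2 of 33, against 5.12%, and it lay inside no footprint as deposited. In the window 37.2 kb upstream of Mir146 it lay outside the region itself. In the Mir142 hairpin flank it lay at 87756647 to 87756654, 27 bp from the region midpoint, and inside a footprint of all 3 libraries once footprints were extended by 5 bp on each side. It was found in the Gm12148 start region too, inside such a footprint of 1 library. C/EBP, a family of myeloid factors, was searched as TTGCNNAA and found in 5 regions (15.2%), against 12.9%. The E-box CACGTG, bound by MYC and the MiT family among others, was found in 6 regions (18.2%), against 8.47%, and within 150 bases in 4, against 5.09%. The match of the Mir142hg start, at 87755530 to 87755535, was inside an extended footprint of all 3 libraries, next to the shared footprints just before the transcript start. The AP-1 motif TGANTCA was found in 5 regions (15.2%), against 10.3%, and 3 of them belonged to Mir21a. The match 40.3 kb upstream of Mir21a, at 86624470 to 86624476, sat at the midpoint of the region and inside extended footprints of all 3 libraries. Matches of different motifs may overlap one another.

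CTCF, a factor that helps set chromatin loop borders, was searched by 1 strict pattern for the core of its motif. This pattern was found in 3 regions (9.09%), against 5.97%. At 2 of them, 14.3 kb downstream of Mir142 and 25.7 kb downstream of Mir146, the match lay within deposited footprints of all 3 libraries without extension. In the Mir146 downstream sequence above it lies within the long run of capitals in the middle. Variants of the CTCF pattern were not searched, so regions that hold only a variant are not in these counts. The footprint bases shared by all 3 libraries 37.2 kb and 38.5 kb upstream of Mir146 each include such a near match. It differs from the pattern at 1 fixed base, and whether CTCF binds there was not tested. RUNX factors, searched as TGTGGT, matched 9 regions (27.3%), against 21.2%. IRF factors, with the letters GAAA repeated after 2 bases, matched 3 (9.09%), against 3.64%, 1 of them in the Mir223 region 1 bp from its midpoint. The NF-kappaB motif, GGGA and CCC spaced by 3 bases, matched 1 region (3.03%), 12.4 kb downstream of Mir146, against 6.62%. It was in neither the Mir155hg nor the Gm12148 start window, but the Mir155hg window ends before the annotated start. Variants of the NF-kappaB pattern were not searched either, so its absence from a window covers this pattern alone. A match lay at 43385965 to 43385974 inside Gm12148, in the window of a neighbouring region found in replicate 1 only. The STAT motif TTCCNGGAA and the KLF motif GGGTGTGG were in 0 of 33 member regions and in 1.06% and 4.53% of all regions.

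Lists of other microRNA genes gave the same kind of count. Of 21 further microRNA genes known from blood cells, 5 had a peak of every library within 1 kb, against 9.74% of all microRNA genes. They form 2 clusters, Mir23a, Mir27a and Mir24-2 with 26.7 ± 3.21 peaks within 50 kb (SD, n = 3) and Mir132 and Mir212 with 16.3 ± 4.93. Of 16 microRNA genes known from other lineages, 0 had such a peak in every library, and the epithelial Mir141 had one in 2 libraries. Peaks within 50 kb did not follow the same order, with a median of 4.67 for the blood list and 6.0 for the other lineages. Within 50 kb Mir146 had 12, 9 and 11 peaks in replicates 1, 2 and 4, against 13, 20 and 14 (15.7 ± 3.79) at Mir146b, named here for the shared seed, and neither had a peak within 1 kb in any library.

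The genes that make and use microRNAs had open promoters. Of 24 genes of the pathway, 21 had a promoter peak in all 3 libraries, against 50.9% of protein-coding genes. Drosha, the nuclear hairpin cutter, was at 5.0, 4.58 and 9.46 in replicates 1, 2 and 4 (6.34 ± 2.70, SD, n = 3), and Dicer1, which trims the hairpin, at 7.27, 5.56 and 9.78 (7.54 ± 2.12). Ddx5, a helicase of the Drosha complex, was at 10.6, 9.74 and 17.0 (12.4 ± 3.96). No peak of any library was found at the promoters of 3 genes, the Argonaute gene Ago4 and the let-7 inhibitors Lin28a and Lin28b, while Ago1, Ago2 and Ago3 were at 6.41 ± 1.90, 5.80 ± 1.33 and 4.33 ± 1.60.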

How the data were processed

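DNase-seq peaks, footprints and per-base false discovery rates of 3 libraries were used as the authors deposited them, on mm10 per the labels. Which aligner, peak caller and footprint method were used is not given in the sources used here. Height in column 7 is a signal value of the authors, with no scale stated. The deposited p-value column of the footprints is constant at 0.01, and the deposited false discovery rate lists hold bases under 0.05.

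Gene records and protein-coding TSSs came from GENCODE M21, the latter from its basic set. Peaks of the longer list of each library were merged on an overlap of 1 bp, and distance is the region midpoint minus the gene start, signed by strand. A percentile is the rank of a height in its own library's list. Mature RNAs, enhancer records and genome sequence came from RefSeq's GRCm38.p6. Scripts ran in Python 3.11.15 with numpy 2.4.6, scipy 1.17.1 and matplotlib 3.10.9, and the merging was tested on simulated intervals. With 1 group there is no contrast and no test. Counts stand beside the same count over all features. Members and gene lists were chosen with earlier results of these data known. The text names all members, their recurrent regions, the coding genes near them, host records, listed microRNA genes with a peak and pathway genes without one; Drosha, Dicer1, Ddx5, Ago1 to Ago3 and Mir146b were added after their values were seen. Alternatives were the shorter peak list, the taller 50% of peaks, other windows and overlaps, and leaving out each library.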

Additional observations from a re-analysis of the deposited data

How the results depend on the processing

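Of 150 recomputed values 115 stayed close to the reported value and 35 moved by more than the spread between libraries, the counting interval or, for counts, 1.5 times. Some of those that stayed close could hardly move. The height of the tallest region of Mir142, Mir146, Mir155 and Mir21a was identical with the shorter list and the taller 50% of peaks. The mean of 40.0 peaks over the 5 loci was 28.7 with the shorter list, 27.0 with the taller 50% of peaks, 32 within 25 kb and 52.7 within 100 kb. The 33 recurrent regions were 22 with the shorter list and 23 with the taller 50%, and both were counted as close. Mir223 had 0 peaks with the shorter list and with the taller 50%, and Mir155 had 1.33 and 1.0. Members with a peak near the gene start were 1 within 1 kb and 3 within 5 kb. Footprints per region, 2.73, were 3.35 with the shorter list, 3.12 with the taller 50%, and between 2.44 and 2.76 when 1 library was left out. Counting each region once per motif, 37 held a match in 300 bp and 21 in 150 bp, and 13 held one inside an extended footprint of at least 1 library but 4 inside a footprint as deposited. Genes of other lineages with a near peak ranged from 0 to 1 when 1 library was left out, Mir141 appearing without replicate 2. With TSSs of the comprehensive annotation, chosen after seeing the data, 15.2% of member regions were near a coding TSS, the added one lying at Mpo. No paired analysis was possible because there is 1 group. The depth is unknown, so a missing low peak cannot be told from a library read less deeply, and heights are comparable only within a library.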
